A study of Homo sapiens with 6 samples.

Results

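Cells that leave S phase switch on a shared set of genes for G2 and mitosis, and 40 of these were followed here through the libraries labelled olaparib and DMSO. They were chosen by name from the 39396 gene symbols of the deposited count table: mitotic cyclins and kinases, the spindle checkpoint, the centromere and kinetochore, and proteins of the spindle, of anaphase and of cytokinesis. The rule itself used no measured value, but the members were chosen with earlier results of these data known. Kinesins were set aside, although CENPE, which stayed on the list, encodes a motor of that superfamily. All 40 genes were in the table and all 40 passed the expression filter that left 17078 genes for testing.

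The study set 3 libraries from cells given olaparib, an inhibitor of the PARP enzymes that respond to DNA strand breaks, against 3 libraries from cells given the solvent DMSO. All 6 libraries are labelled as wild-type RKO, an established human colorectal carcinoma line, and the cells were plated the day before treatment. The sources used here give neither dose nor duration of treatment. The olaparib libraries held 28715138 to 31387990 counts and the DMSO libraries 29544974 to 42423785. No label ties the replicates to separate cultures, and the p-values therefore rest on a spread between libraries that may be purely technical.

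In G2, cyclin A2 and then cyclins B1 and B2 activate the kinase CDK1, and the resulting activity drives entry into mitosis. The spindle checkpoint holds cells in metaphase until every kinetochore is attached to microtubules. The anaphase-promoting complex, a ubiquitin ligase, then marks cyclin B and securin for destruction, so that sister chromatids part and cells exit mitosis. The mRNAs of most of these proteins rise together late in the cycle under the MuvB complex with B-MYB and FOXM1, and their level is widely read as a sign of proliferation.

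The labelled cell type was checked first, and the groups differed in markers of cell identity. Of 13 epithelial and intestinal genes, 3 reached a mean of 1 CPM (counts scaled to a common library size) in olaparib and 3 in DMSO. In olaparib these were EPCAM, KRT8 and KRT18, and in DMSO KRT8, KRT18 and CDX2. EPCAM averaged 4.67 CPM in olaparib and 0.999 CPM in DMSO. Summed levels of the 13 genes were 807 to 1089 CPM in olaparib and 242 to 311 CPM in DMSO. KRT8 and KRT18, the keratins of simple epithelia, carried most of that signal, whereas CDX1, CEACAM5 and GUCY2C were at or near 0 in every library. The intestinal factor CDX2 had no count in any olaparib library and 22.5 to 26.5 CPM in the DMSO libraries. Of 8 markers of embryonic kidney lines, 3 reached 1 CPM in olaparib and 7 in DMSO, and their sums were 33.8 to 36.1 CPM in olaparib against 276 to 471 CPM in DMSO. LIN28B, PAX2 and NEFL had no count in any olaparib library, and IRS4 and NEFM were also lower there. On the same list PAX8 and HOXA11 were higher, PAX8 at 6.33 CPM in olaparib and 0.541 CPM in DMSO and HOXA11 at 25.6 CPM in olaparib and 19.6 CPM in DMSO. Of 6 fibroblast genes, 2 reached 1 CPM in olaparib and 4 in DMSO (sums of 102 to 135 CPM in olaparib and 89.6 to 97.4 CPM in DMSO). Of 7 blood and endothelial genes, 2 reached 1 CPM in olaparib and none in DMSO (sums of 23.0 to 24.6 CPM in olaparib and 0.878 to 1.42 CPM in DMSO). The endothelial genes CDH5 and PECAM1 made up most of the olaparib sum, averaging 20.5 and 2.51 CPM there. PTPRC, CD3E, LYZ, HBA1 and VWF stayed below 1 CPM in every library. A difference in cell source cannot be told apart from treatment in any result below. Nor can a smaller share of cells in G2 and mitosis be told apart from less RNA per cell in bulk libraries.

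Of the 40 genes, 20 were lower and 7 were higher in the olaparib libraries, and 13 did not pass the test. Calls come from the quasi-likelihood test of edgeR at an adjusted p of 0.05, with the Benjamini-Hochberg adjustment made over all tested genes. Over all 17078 genes it called 75.7%, with 40.3% lower and 35.4% higher, so that the 27 called members are a share close to the background. The median log2 fold change of the 40 genes was -0.44, against -0.09 over all tested genes, and their median absolute log2 fold change was 0.77, against 0.94 over all. Of the members, 9 were at least 2-fold lower and 2 at least 2-fold higher, where 25.0% of all genes were called and at least 2-fold lower and 22.0% at least 2-fold higher. The libraries of the groups did not overlap in 26 of the 40 members, a smaller share than the 79.4% of all genes. The members together took 0.325, 0.467 and 0.469% of each olaparib library, against 0.573, 0.442 and 0.452% of each DMSO library, so these sums overlapped between groups.

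**Figure D1:**
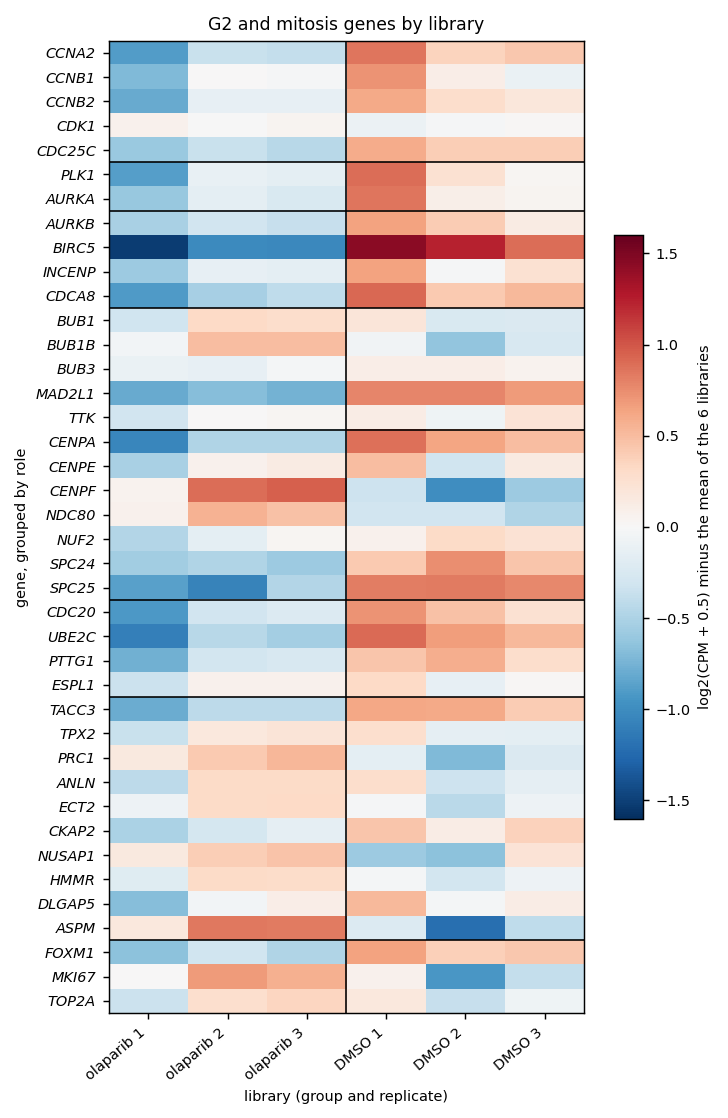
Level of each of the 40 genes (rows, grouped by role) in each library (columns, olaparib then DMSO), as log2(CPM + 0.5) minus the gene's mean over the 6 libraries. Survivin (BIRC5) has the widest spread, MKI67, ASPM and CENPF run against most other rows, and olaparib replicate 1 lies at the low (blue) end of its group in 36 of 40 rows.

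Of the cyclins that bind CDK1, CCNA2 and CCNB2 were lower, while CCNB1 and CDK1 itself did not pass the test. CCNA2, which encodes cyclin A2, stood at 44.3, 64.7 and 63.4 CPM in the olaparib libraries, against 150.1, 107 and 112 CPM in the DMSO libraries. All olaparib values lay below all DMSO values, for a 2.14-fold lower level (log2 fold change -1.10 ± 0.16, SE; adjusted p = 6.23e-05 by edgeR). CCNB2 (cyclin B2) was 1.62-fold lower, at 34.2, 54.6 and 54.9 CPM in olaparib and 92.1, 72.9 and 68.4 CPM in DMSO, again without overlap. CDC25C, the phosphatase that removes the inhibitory phosphates from CDK1, was 1.92-fold lower, averaging 15.4 ± 1.29 CPM in olaparib and 29.6 ± 2.49 CPM in DMSO (SD, n = 3).

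CCNB1 (cyclin B1) overlapped between the groups, at 101, 166 and 164 CPM in olaparib against 273, 177 and 154 CPM in DMSO. Its log2 fold change of -0.49 ± 0.23 did not pass (adjusted p = 0.0702 by edgeR), and it did pass without DMSO replicate 3 (-0.66, adjusted p = 0.0309), with library size alone (-0.55, adjusted p = 0.0406) and with DESeq2 (-0.48, adjusted p = 0.0398). It was nearer to 0 without DMSO replicate 1 (-0.22, adjusted p = 0.322 by edgeR) or olaparib replicate 1 (-0.29, adjusted p = 0.221). CDK1 was the steadiest member, at 126, 119.7 and 124 CPM in olaparib and 113, 119 and 122 CPM in DMSO. Its log2 fold change was 0.06 ± 0.09 (adjusted p = 0.541 by edgeR), with a sign that turned when libraries were scaled by size alone. Within each library the count of CCNA2 relative to CDK1 was 0.351, 0.541 and 0.511 in olaparib and 1.33, 0.898 and 0.914 in DMSO, and these ratios did not overlap. For CCNB1 relative to CDK1 they did, at 0.799, 1.39 and 1.32 in olaparib and 2.41, 1.49 and 1.26 in DMSO. Such ratios do not depend on scaling between libraries, but they keep any trend with coding length, which is described below. With 3 against 3 an exact permutation test cannot go below p = 0.1, so none was tested.

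Both kinases that build the spindle and trigger mitotic entry were lower, where 40.3% of all tested genes were called lower. PLK1, polo-like kinase, stood at 66.8, 114 and 111 CPM in olaparib and at 230.1, 147 and 127 CPM in DMSO (1.72-fold lower, adjusted p = 0.0129 by edgeR). AURKA, the Aurora kinase of centrosomes, stood at 46.5, 63.9 and 60.1 CPM in olaparib and at 129, 76.3 and 73.6 CPM in DMSO (1.64-fold lower, adjusted p = 0.00688 by edgeR). The groups did not overlap for either gene, which also held for 79.4% of all tested genes. In each group 1 library stood apart, olaparib replicate 1 at the low end and DMSO replicate 1 at the high end. Without DMSO replicate 1 the log2 fold change was -0.50 for PLK1 (-0.78 with it) and -0.41 for AURKA (-0.71 with it), and both still passed. Without DMSO replicate 2 PLK1 did not pass (-0.88, adjusted p = 0.0513 by edgeR), nor did it with no filter on low counts (adjusted p = 0.123).

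All 4 members of the chromosomal passenger complex, which corrects faulty attachments of kinetochores and later directs cytokinesis, were lower. Survivin (BIRC5), the subunit that binds the centromere and also belongs to the family of apoptosis inhibitors, showed the widest difference of the 40 genes. BIRC5 stood at 55.8, 79.3 and 78.3 CPM in olaparib, against 438, 378 and 299 CPM in DMSO, for a 5.22-fold lower level (log2 fold change -2.39 ± 0.17, adjusted p = 9.05e-08 by edgeR). CDCA8 (borealin), its partner in centromere binding, was 2.37-fold lower, at 38.2, 49.8 and 54.2 CPM in olaparib and 137, 96.3 and 103 CPM in DMSO. The kinase subunit AURKB was 1.75-fold lower and the scaffold INCENP 1.51-fold lower. The groups did not overlap for any of these 4 genes, which also held for 79.4% of all tested genes. Over all tested genes, 40.3% were called lower.

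The subunits were not lower to the same extent. BIRC5 had 0.911, 0.941 and 0.95 counts for each count of INCENP in the olaparib libraries, against 3.05, 4.15 and 2.73 in the DMSO libraries. Relative to AURKB, BIRC5 stood at 0.877, 1.08 and 1.12 in olaparib and at 3.06, 3.12 and 3.01 in DMSO. The coding sequences of BIRC5, INCENP and AURKB are 495, 2754 and 1035 bases long. In the fit with an offset for coding length, described below, their log2 fold changes were -1.86, -0.81 and -0.60. BIRC5 lies at 78214186 to 78225636 on chromosome 17 (GRCh38), and 169 tested protein-coding neighbours, at up to 5 Mb on either side, had a median log2 fold change of -0.50. BIRC5 minus that median was -1.89.

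**Figure D2:**
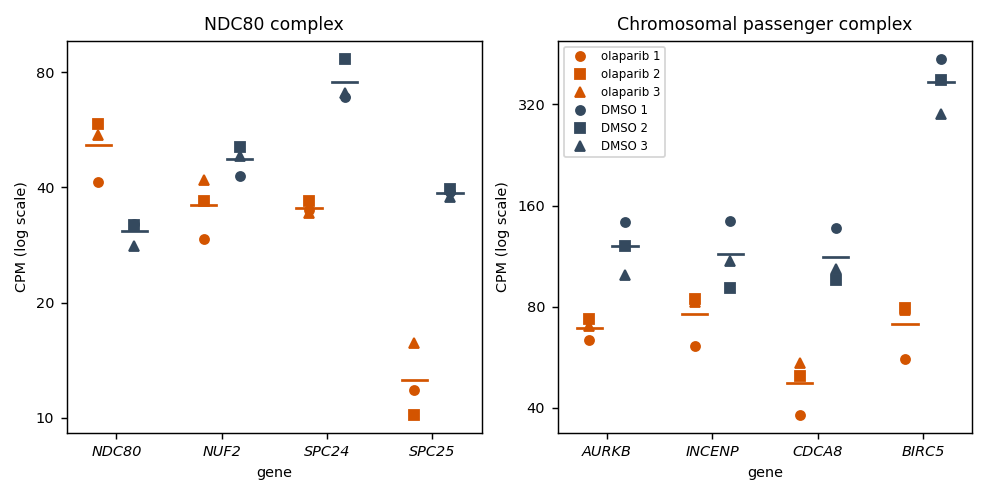
CPM (log axis) of the subunits of the NDC80 complex (left) and the chromosomal passenger complex (right) in each olaparib library (orange, left of each pair) and DMSO library (dark, right), with a bar at each group's mean. NDC80 is above DMSO in olaparib while NUF2, SPC24 and SPC25 are below it, and BIRC5 shows the widest gap on the right.

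Of 5 spindle checkpoint genes, 1 was called lower, 1 was called higher and 3 did not pass. MAD2L1 (MAD2), which with BUBR1 and BUB3 sequesters CDC20 while kinetochores are unattached, was 2.85-fold lower, at 38.9, 42.8 and 40.3 CPM in olaparib and 119, 118 and 110.0 CPM in DMSO (log2 fold change -1.51 ± 0.10, adjusted p = 3.88e-08 by edgeR). Its replicates were closely alike in both groups. BUB1B, which encodes BUBR1, was 1.55-fold higher, at 58.2, 84.9 and 84.3 CPM in olaparib and 57.8, 38.4 and 49.9 CPM in DMSO, with a narrow gap between olaparib replicate 1 and DMSO replicate 1. Its log2 fold change was 0.64, and its 92 tested protein-coding neighbours at up to 5 Mb had a median of 0.49. The 24 neighbours of MAD2L1 had a median of -0.13. The part of these neighbours in either difference was not tested. The kinases BUB1 (0.20 ± 0.17) and TTK (-0.18 ± 0.12) and the adaptor BUB3 (-0.17 ± 0.09) did not pass (adjusted p = 0.3, 0.194 and 0.107 by edgeR). BUB1 passed as higher without olaparib replicate 1 (0.37, adjusted p = 0.0364 by edgeR) and stood between 0.09 and 0.34, not called, without any other library, and BUB3 passed as lower with library size alone (-0.24, adjusted p = 0.0309). Counts of BUB1B relative to MAD2L1 were 1.5, 1.99 and 2.09 in olaparib and 0.487, 0.324 and 0.454 in DMSO, without overlap.

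At the centromere, the histone that marks it was lower and a large outer protein was higher. CENPA, the centromeric histone H3 variant, stood at 11.9, 17.9 and 17.9 CPM in olaparib, against 46.8, 39.3 and 35.8 CPM in DMSO (2.55-fold lower, log2 fold change -1.35 ± 0.17). CENPF, which helps recruit dynein regulators to the kinetochore, stood at 293, 521 and 547 CPM in olaparib, against 224, 142 and 188 CPM in DMSO (2.46-fold higher, 1.30 ± 0.23, adjusted p = 0.000307 by edgeR). For neither gene did the groups overlap, as for 79.4% of all tested genes. CENPE, the kinesin that moves chromosomes to the spindle equator, stood at 34.5, 52.3 and 54.4 CPM in olaparib and 70.3, 39.9 and 55.3 CPM in DMSO, and its -0.23 ± 0.21 did not pass.

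The NDC80 complex, the rod that joins kinetochores to microtubules, holds its 4 subunits in equal amounts as a protein, but their mRNAs differed in direction. NDC80 was 1.68-fold higher, at 41.4, 58.4 and 54.8 CPM in olaparib and 32.0, 32.0 and 28.1 CPM in DMSO (0.75 ± 0.13, adjusted p = 0.000282 by edgeR). Its direct partner NUF2 was 1.31-fold lower, at 29.4, 36.7 and 41.8 CPM in olaparib and 42.8, 50.8 and 48.3 CPM in DMSO, a call that was lost without olaparib replicate 1 (adjusted p = 0.0807 by edgeR). SPC24 and SPC25, which anchor the rod to the inner kinetochore, were 2.13-fold and 3.09-fold lower. SPC25 stood at 11.8, 10.2 and 15.7 CPM in olaparib and at 39.0, 39.6 and 37.7 CPM in DMSO (-1.63 ± 0.15, adjusted p = 1.06e-06 by edgeR), and SPC24 at 35.3 ± 1.31 CPM in olaparib and 75.3 ± 9.97 CPM in DMSO (SD, n = 3). Within libraries there were 3.50, 5.73 and 3.50 counts of NDC80 for each count of SPC25 in olaparib, against 0.821, 0.807 and 0.747 in DMSO. The region of NDC80 on chromosome 18 was also shifted upward, with a median log2 fold change of 1.07 over 22 neighbours chosen by the same distance. NDC80 minus that median was -0.32. Medians around NUF2, SPC24 and SPC25 were -0.20, -0.29 and -0.36. Coding sequences of NDC80, NUF2, SPC24 and SPC25 are 1926, 1392, 591 and 672 bases long. With the offset for coding length described below, their log2 fold changes were 0.69, -0.32, -0.63 and -1.22. The part of the neighbours was not tested.

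Genes of anaphase and mitotic exit were lower in 3 of 4 cases, where 40.3% of all tested genes were lower. UBE2C, the ubiquitin-conjugating enzyme of the anaphase-promoting complex, stood at 40.6, 63.8 and 59.3 CPM in olaparib and at 163, 138 and 125 CPM in DMSO (2.61-fold lower, -1.38 ± 0.16, adjusted p = 7.36e-06 by edgeR). CDC20, the activator of that complex in metaphase, was 1.93-fold lower, at 67.3, 104 and 110.3 CPM in olaparib and 211, 178 and 152 CPM in DMSO. PTTG1 (securin), the inhibitor of separase, was 1.82-fold lower, at 63.4 ± 11.8 CPM in olaparib and 116 ± 11.98 CPM in DMSO (SD, n = 3). ESPL1, separase itself, which cleaves cohesin, did not pass (-0.14 ± 0.14, adjusted p = 0.387 by edgeR), and averaged 132 ± 20.8 CPM in olaparib and 145 ± 23.6 CPM in DMSO (SD, n = 3).

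Of 10 proteins of the spindle and of cytokinesis, 2 were lower, 3 were higher and 5 did not pass. TACC3, which stabilises kinetochore fibres with clathrin, stood at 100.3, 130.2 and 129.8 CPM in olaparib and at 267, 267 and 232 CPM in DMSO (2.13-fold lower, -1.09 ± 0.12, adjusted p = 5.48e-06 by edgeR). The spindle protein CKAP2 was 1.54-fold lower. ASPM, the spindle pole protein that is mutated in a primary microcephaly, stood at 176, 281 and 279 CPM in olaparib and at 134, 67.7 and 118 CPM in DMSO (2.30-fold higher, 1.20 ± 0.25, adjusted p = 0.00114 by edgeR). ECT2, the exchange factor that activates RhoA at the cleavage furrow, was 1.29-fold higher with overlapping groups (adjusted p = 0.0301 by edgeR). Its call was lost with library size alone (0.29) and without olaparib replicate 2 or 3 or DMSO replicate 2 or 3, with adjusted p = 0.056 to 0.109 by edgeR and a log2 fold change of 0.23 without DMSO replicate 2 against 0.36 with it. TPX2, the activator of Aurora A on spindle microtubules (0.02 ± 0.16), and ANLN, the anillin of the contractile ring (0.14 ± 0.20), did not pass, and nor did HMMR (0.29 ± 0.14) and DLGAP5 (-0.40 ± 0.19). TPX2 turned negative with library size alone. HMMR passed without olaparib replicate 1 (0.43, adjusted p = 0.00783 by edgeR) and stood between 0.20 and 0.33, not called, without any other library. DLGAP5 passed without olaparib replicate 3 (-0.53, adjusted p = 0.0333 by edgeR), and it was nearer to 0 without olaparib replicate 1 (-0.19, adjusted p = 0.301) or DMSO replicate 1 (-0.23, adjusted p = 0.3).

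PRC1, which bundles microtubules of the central spindle, and NUSAP1, a spindle-associated protein, had very few counts and are uncertain. PRC1 held 96 to 127 counts in the olaparib libraries and 48 to 110 in the DMSO libraries, and NUSAP1 held 31 to 42 in olaparib and 12 to 51 in DMSO. In GENCODE release 29, 58.4% of the exonic bases of PRC1 and 62.2% of those of NUSAP1 also belong to another gene, mostly one on the same strand, against at most 15.9% in any other member. The sources used here do not say how the counting treated such bases. PRC1 was called higher (0.83 ± 0.26, adjusted p = 0.0129 by edgeR) and NUSAP1 was not (0.93 ± 0.44, adjusted p = 0.0745). NUSAP1 passed without DMSO replicate 3, with 1.58 against 0.93 over all libraries, and with limma-voom (1.05, adjusted p = 0.0417). Without any other library it stood between 0.68 and 1.04 and was not called.

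The regulator FOXM1 was lower and the proliferation marker MKI67 was called higher, a call that was lost (0.0056, adjusted p = 0.975 by edgeR) in a fit with an offset for coding length, added after seeing the data, in which FOXM1 was still lower (-1.13). FOXM1, the forkhead factor that with MuvB activates genes of this kind, stood at 85.3, 107 and 95.8 CPM in olaparib and at 210.2, 175 and 182 CPM in DMSO (1.97-fold lower, -0.97 ± 0.12, adjusted p = 8.47e-06 by edgeR). MKI67, the coat protein of mitotic chromosomes known as Ki-67, stood at 351, 559.7 and 519.6 CPM in olaparib and at 366, 184 and 268 CPM in DMSO (1.75-fold higher, 0.81 ± 0.23, adjusted p = 0.00825 by edgeR). The groups overlapped for MKI67, since DMSO replicate 1 lay above olaparib replicate 1, and with no filter on low counts it did not pass (adjusted p = 0.105 by edgeR). TOP2A, the topoisomerase that untangles sister chromatids, did not pass (0.19 ± 0.18) but did without olaparib replicate 1 (0.38, adjusted p = 0.0457 by edgeR). Without any other library it stood between 0.05 and 0.32 and was not called.

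**Figure D3:**
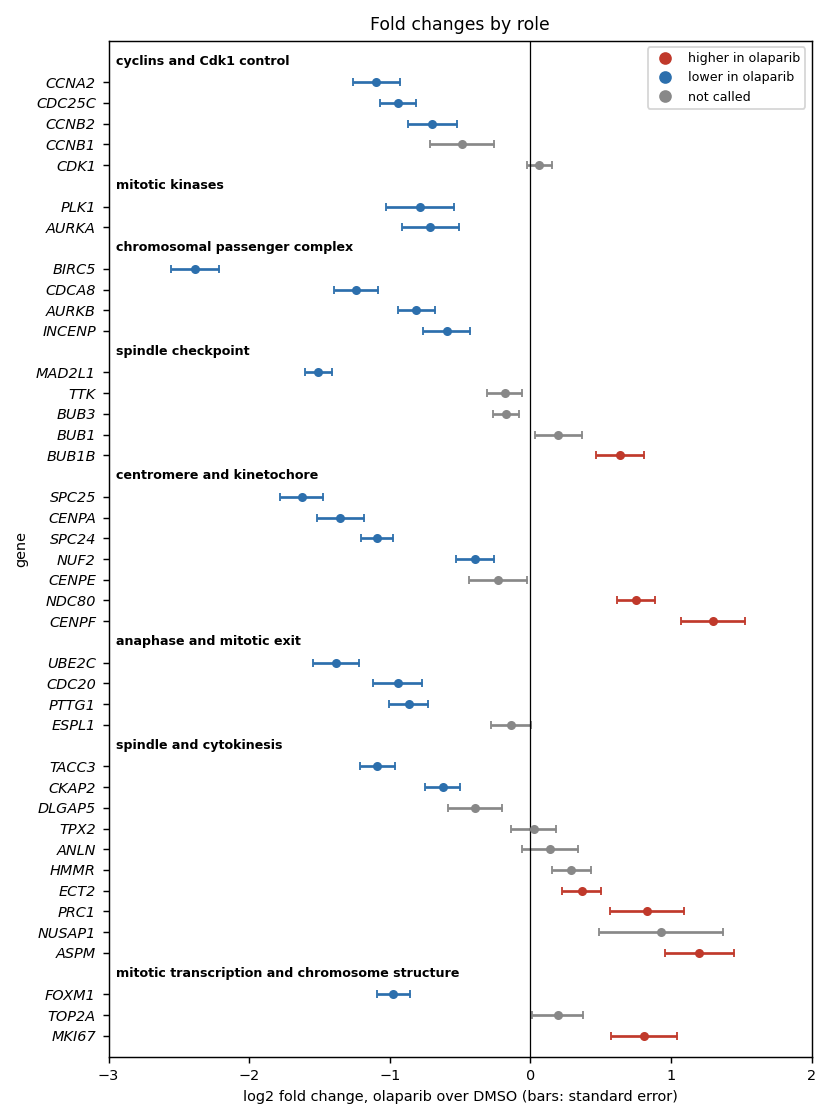
Log2 fold change of each gene, olaparib over DMSO, with its standard error, grouped by role and coloured by the call of edgeR's test. The chromosomal passenger complex lies wholly left of 0, while the checkpoint, kinetochore and spindle groups lie on both sides, from -2.39 for BIRC5 to 1.30 for CENPF.

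The 40 genes varied together between replicates of the same label. Olaparib replicate 1 was the lowest of its group in 36 of 40 members, with a median of 0.47 log2 units below the mean of the other olaparib libraries (-0.47), whereas it was lowest in 36.8% of all tested genes. DMSO replicate 1 was the highest of its group in 33 of 40 members, with a median of 0.37 above, against 37.9% of all tested genes. CDK1 was the member in which olaparib replicate 1 was highest. The median SD within the olaparib group was 0.28 (log2 CPM) over the members, against 0.09 over 10222 tested genes with a mean of 10 to 500 CPM. Within the DMSO group it was 0.24 over the members and 0.16 over those genes. CCNB1, PLK1 and AURKA were among the most variable, with SDs of 31.3, 32.7 and 33.8% of the mean in DMSO, and CDK1, BUB3 and MAD2L1 among the least, with 3.85, 1.73 and 4.29%. Without olaparib replicate 1 the counts were 19 lower and 10 higher, and without DMSO replicate 1 they were 20 lower and 7 higher.

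The length of the coding sequence, which played no part in the choice of genes, followed the fold change. Across the 40 members the longest coding sequence annotated in GENCODE release 29 correlated with the log2 fold change at a Spearman rho of 0.70 and a Pearson r of 0.62. This is a description over genes that share the same 6 libraries. Of the 10 members under 1 kb, 8 were lower, none was higher and 2 did not pass, and the median over these was -1.30. Among them were BIRC5 (495 bases), MAD2L1 (615), SPC25 (672), UBE2C (537) and CENPA (420). The 12 members of 1 to 2 kb had a median of -0.71, with 8 lower, 2 higher and 2 that did not pass. Those of 2 to 4 kb, also 12, had a median of -0.08, with 4 lower, 2 higher and 6 that did not pass. Of the 6 members of 4 kb or more, 3 were higher, none was lower and 3 did not pass, and the median over them was 0.50. These were ASPM (10431 bases), MKI67 (9768), CENPF (9342), CENPE (8103), ESPL1 (6360) and TOP2A (4593).

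The same trend ran through the rest of the table. Over 9801 protein-coding genes whose mean reached 5 CPM in each group, rho was 0.31, and the median log2 fold change was -0.46 under 1 kb, -0.09 from 1 to 2 kb, 0.21 from 2 to 4 kb and 0.57 at 4 kb or more. Of the 2855 of these genes under 1 kb, 1606 were lower and 612 higher, and of the 794 of 4 kb or more, 132 were lower and 483 higher. Libraries of one label also differed in it: in genes of 4 kb or more the median deviation from the mean of all libraries was -0.54 in DMSO replicate 2, against -0.16 and -0.17 in DMSO replicates 1 and 3. Without DMSO replicate 2 the counts of members were 19 lower and 6 higher. The GC content of the members' transcripts moved the opposite way, with a rho of -0.43.

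The fit with an offset for coding length in each library gave 24 members lower and 6 higher, where it called 77.0% of 14197 genes. Across those genes the Spearman rho of coding length with the log2 fold change was then -0.03. Among the 40 members it was still 0.36, with a median log2 fold change of -0.56, so the offset did not remove the trend among them. BIRC5 (-1.86), SPC25 (-1.22), TACC3 (-1.27), FOXM1 (-1.13), MAD2L1 (-1.07) and CCNA2 (-0.99) were still called lower by edgeR in that fit. CENPF (0.50), ASPM (0.37), BUB1B (0.35) and NDC80 (0.69) were still called higher. Besides MKI67, ECT2 lost its call (0.15, adjusted p = 0.257 by edgeR). CENPE (-0.95), ESPL1 (-0.76), DLGAP5 (-0.57) and TTK (-0.37) passed as lower and CDK1 (0.34) as higher. UBE2C (-0.89), CENPA (-0.76), SPC24 (-0.63) and PTTG1 (-0.41) were called lower with values over 1.5 times nearer to 0 than without the offset, and so were the higher values of CENPF, ASPM and BUB1B.

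**Figure D4:**
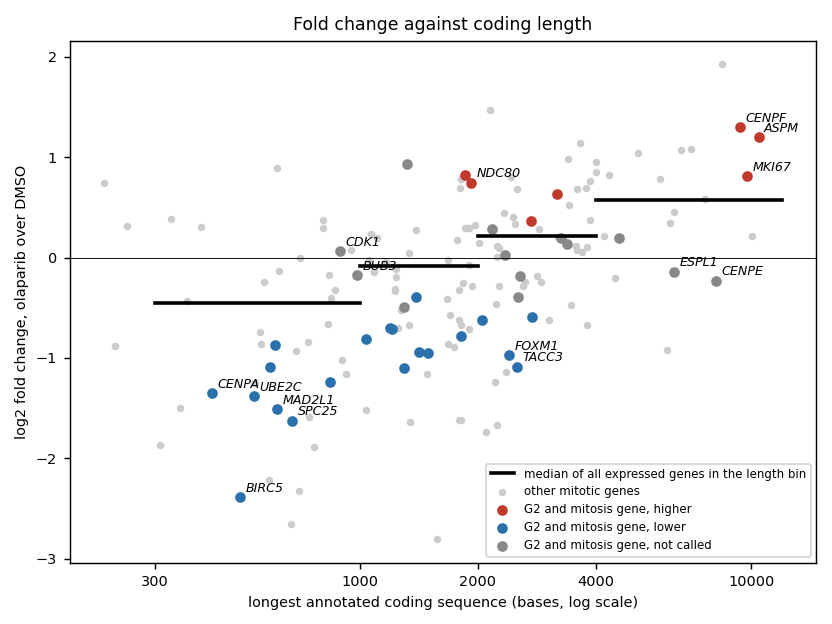
Log2 fold change, olaparib over DMSO, against the longest annotated coding sequence (log axis) for the 40 genes, coloured by call, and for 122 other mitotic genes (pale grey), with black bars at the median of all expressed protein-coding genes in each length bin. Short members such as BIRC5 and SPC25 lie low and CENPF, ASPM and MKI67 lie high, and the black bars step up from -0.46 to 0.57.

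Many of these genes share promoter elements, and a few are printed here to show the layout. RefSeq promoter windows (GRCh38.p14, 250 bases before to 50 after the start) were matched for 33 of the 40 genes. The letters TTTGAA, the cell cycle homology region bound by MuvB, were searched on both strands and occurred in 23 of 33 windows (69.7%), against 15.4% of 27305 windows and 9.75% of 12517 windows of tested genes. The letters CCAAT, bound by NF-Y, occurred on either strand in 25 of 33 (75.8%), against 35.7% of all windows and 36.2% of those of tested genes. Both occurred in 19 members (57.6%), against 6.08% of all windows. TTTGAA was in 9 of 16 windows of members called lower, in 7 of 7 called higher and in 7 of 10 not called. CCAAT was in 12 of 16, in 5 of 7 and in 8 of 10. A match is a description of the letters only. The stretches below run from 150 bases before to 30 after the start, 5′ to 3′ on the strand of the gene, and capitals mark TTTGAA or CCAAT on either strand, so that TTCAAA and ATTGG are the same motifs read from the other strand. They are CCNB2, with its evenly spaced CCAAT letters, and the genes with a window that were furthest below (SPC25, MAD2L1) and above (CENPF, ASPM) in olaparib.
CCNB2 (chr15:59104996-59105175, plus strand): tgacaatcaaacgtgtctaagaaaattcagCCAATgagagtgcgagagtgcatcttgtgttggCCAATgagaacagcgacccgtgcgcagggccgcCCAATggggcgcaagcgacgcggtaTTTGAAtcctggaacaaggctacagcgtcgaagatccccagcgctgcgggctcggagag
SPC25 (chr2:168890401-168890580, minus strand): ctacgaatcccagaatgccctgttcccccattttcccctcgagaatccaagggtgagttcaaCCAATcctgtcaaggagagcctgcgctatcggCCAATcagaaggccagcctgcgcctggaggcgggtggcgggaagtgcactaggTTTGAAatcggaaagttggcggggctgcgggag
MAD2L1 (chr4:120066819-120066998, minus strand): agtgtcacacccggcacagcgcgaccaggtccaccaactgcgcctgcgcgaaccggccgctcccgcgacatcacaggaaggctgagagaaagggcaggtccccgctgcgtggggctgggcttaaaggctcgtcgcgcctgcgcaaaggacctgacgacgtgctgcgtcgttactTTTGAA
CENPF (chr1:214603045-214603224, plus strand): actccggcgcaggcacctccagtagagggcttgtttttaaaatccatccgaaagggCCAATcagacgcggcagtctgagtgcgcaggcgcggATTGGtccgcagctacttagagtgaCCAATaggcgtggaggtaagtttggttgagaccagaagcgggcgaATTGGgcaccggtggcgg
ASPM (chr1:197146640-197146819, minus strand): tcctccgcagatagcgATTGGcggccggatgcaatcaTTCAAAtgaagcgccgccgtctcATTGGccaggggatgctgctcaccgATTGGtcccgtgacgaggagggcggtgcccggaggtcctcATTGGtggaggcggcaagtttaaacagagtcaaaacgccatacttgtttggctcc

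In CCNB2 the TTTGAA letters begin 29 bases before the start (position -29), and CCAAT begins at positions -120, -87 and -54. MAD2L1 holds TTTGAA at 25 bases after its start, the last letters shown. SPC25, lower in olaparib, holds TTTGAA at -3 and again at -247, outside the stretch shown, and ASPM, higher in olaparib, holds it at -113. In CENPF it begins at 41 bases after the start, also outside the stretch. Among the genes printed here, those higher and those lower in olaparib thus all held TTTGAA in their windows. This did not extend to all members, since TTTGAA was in 7 of 7 windows of members called higher and 9 of 16 of those called lower. CDC25C, CKAP2 and TACC3, all lower, held neither motif.

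Of 122 other mitotic genes on 7 lists, all of which were tested, 51 fell, 35 rose and 36 did not pass; their median log2 fold change was -0.12. The 70.5% of them that were called is close to the 75.7% of all tested genes, of which 40.3% were lower and 35.4% higher. Among regulators of G2 and mitotic entry, 9 of 14 were lower, 1 was higher and 4 did not pass. CDC25A, a phosphatase that activates cyclin-dependent kinases in S phase and G2, was 6.97-fold lower, at 31.3 ± 5.04 CPM in olaparib and 218 ± 7.92 CPM in DMSO (SD, n = 3). CDC25B was 1.85-fold lower and ENSA, an inhibitor of the phosphatase PP2A, 1.82-fold lower.

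Among MuvB, DREAM and B-MYB, the transcription machinery of these genes, 8 of 12 were lower, 1 was higher and 3 did not pass. Of all tested genes, 40.3% were lower. MYBL2, which encodes B-MYB, was 3.32-fold lower (116 ± 3.68 CPM in olaparib and 384 ± 37.2 CPM in DMSO, SD, n = 3), the MuvB subunit LIN52 2.83-fold and E2F5 2.86-fold lower. In the anaphase-promoting complex with its partners, 8 of 17 were lower, 7 were higher and 2 did not pass. UBE2S, the enzyme that lengthens the ubiquitin chains begun by UBE2C, was 6.30-fold lower, at 69.9 ± 12.2 CPM in olaparib and 440.4 ± 73.7 CPM in DMSO (SD, n = 3), and the subunit ANAPC11 and the inhibitor FBXO5 were 4.64-fold and 3.11-fold lower.

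Of 32 other centromere and kinetochore proteins, 13 were lower, 8 were higher and 11 did not pass. MIS18A, which licenses the loading of CENP-A, was 5.01-fold lower, the microtubule binder SKA1 3.71-fold and CENPB 3.07-fold lower. Of 8 condensin subunits, 4 were lower, 2 were higher and 2 did not pass, with NCAPH2 and NCAPG 3.07-fold and 1.53-fold lower and SMC2 1.603-fold higher. Cohesin and its regulators had 8 of 15 higher, 4 lower and 3 that did not pass, where 35.4% of all tested genes were higher. NIPBL, which loads cohesin, was 3.79-fold higher (371 ± 35.7 CPM in olaparib and 97.8 ± 18.2 CPM in DMSO, SD, n = 3), SMC3 2.21-fold higher and CDCA5 (sororin), which protects cohesion in G2, 2.23-fold lower. Of 24 proteins of the centrosome, spindle poles and midbody, 8 were higher, 5 were lower and 11 did not pass, with CEP152, CENPJ and STIL, proteins of centriole assembly, 2.06-fold, 1.81-fold and 1.70-fold higher.

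**Figure D5:**
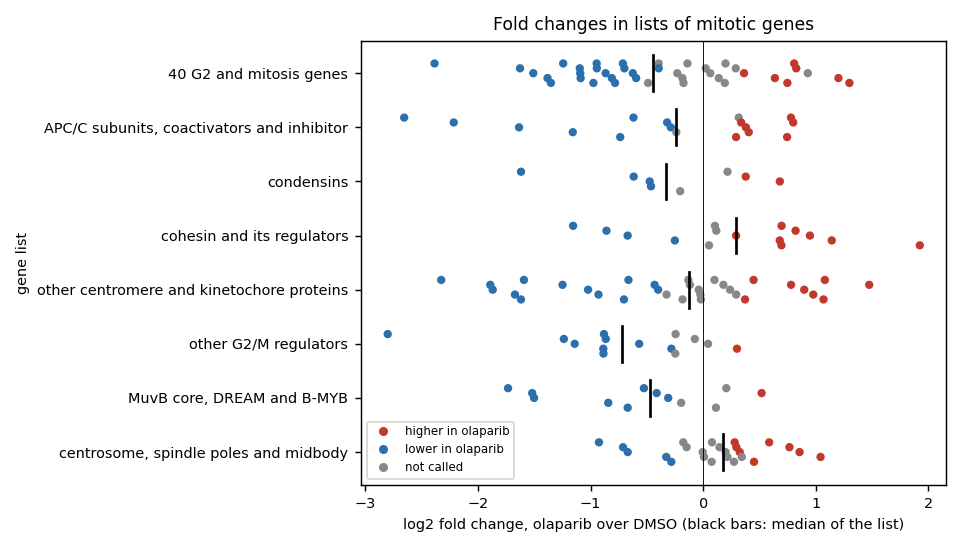
Log2 fold change, olaparib over DMSO, of each gene in the 40 G2 and mitosis genes (top) and in 7 lists of other mitotic genes, coloured by the call of edgeR's test, with a black bar at the median of each list. The regulators of G2 have the lowest median (-0.72) and cohesin the highest (0.29).

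The chromosomal surroundings of other members were also shifted. Tested protein-coding neighbours at up to 5 Mb had a median log2 fold change of 0.89 around CCNB2 (49 genes), 0.98 around ECT2 (22 genes) and 0.81 around BUB1 (40 genes). The median was -0.72 around CENPA (79 genes) and -0.66 around TACC3 (64 genes). CCNB2 itself lay 1.59 log2 units below its neighbours (-1.59) and CENPF 1.26 above its own. The neighbours of CCNA2, MKI67, UBE2C and CENPF had medians of -0.04, -0.0035, -0.0074 and 0.04. Among the other mitotic genes, CENPB and CDC25B lie close together on chromosome 20, where 62 neighbours had a median of -1.67. CENPB itself stood at -1.62 and CDC25B at -0.89. NIPBL stood at 1.92, and its 40 neighbours had a median of 1.17. MIS18A and CDC25A stood at -2.33 and -2.80, with neighbours at -0.37 and -0.82. The part of these surroundings in any gene's difference was not tested.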

How the data were processed

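RNA from 6 libraries was sequenced, and the authors deposited raw read counts per gene symbol, made with fastp and STAR on hg38 per the submitters' processing notes. The sources used here name no counting program, strand setting or annotation. Where genes overlap on opposite strands, reads could then have been split between them. The 3 olaparib and 3 DMSO libraries were grouped by their treatment labels. Genes were filtered with filterByExpr, scaled by TMM and tested with edgeR 4.0.16 in R 4.3.3 (glmQLFit, robust, no covariate). Benjamini-Hochberg adjustment ran over 17078 genes, and the script was tested on simulated data. CPM values use TMM-scaled library sizes. All 40 genes are named, and from each other list the 3 genes with the smallest adjusted p. The members and lists were chosen with earlier results of these data known. Same-numbered libraries of the groups deviated with correlations of -0.18, -0.13 and -0.01, so replicate numbers were not used to pair them. Libraries of one group differed by more than sampling noise (chi-square per degree of freedom of 4.74 to 68.6). All 6 libraries held more genes at 2 counts than at 1, and counts divided by 2 were tried. Alternatives were other scaling, filters, DESeq2 1.42.0, limma 3.58.1 (voom), a replicate block and leaving out each library. Coding lengths and overlaps come from GENCODE release 29, for 83.1% of tested genes, and promoters from RefSeq (GRCh38.p14). Intervals and tests cover these libraries only.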

Additional observations from a re-analysis of the deposited data

How the results depend on the processing

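Across other scalings, filters, tools, the replicate block and leaving out each library, 19 to 22 of the 40 genes were lower and 6 to 10 higher, and 23 of the 27 called genes kept their direction and call throughout. With edgeR scaled by library size alone, CDK1 (-0.0047) and TPX2 (-0.043) changed sign. TPX2 ranged from -0.06 to 0.18 as each library was left out (-0.0645 without DMSO replicate 3 and 0.181 without olaparib replicate 1). With the coding length offset, chosen after seeing the data, BUB1 (-0.10), BUB3 (0.062), TPX2 (-0.12), ANLN (-0.18) and TOP2A (-0.26) changed sign, and none of them passed in either fit. PLK1 and MKI67 did not pass when every gene with at least 1 count was kept (adjusted p = 0.123 and 0.105 by edgeR). With a replicate block 19 genes were lower and 7 higher, PLK1 lost its call (-0.77, adjusted p = 0.0712 by edgeR), and no other of the 40 calls changed. The cause of these changes was not tested. PRC1 and NUSAP1 rest on at most 127 counts a library, which limits them.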

Other observations

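The 122 other mitotic genes showed the table-wide gradient with coding length too, with a Spearman rho of 0.48 across genes that share the same 6 libraries. Of the 32 under 1 kb, 19 were lower in olaparib, 5 were higher and 8 did not pass (median log2 fold change -0.70), where 1606 of all 2855 expressed protein-coding genes of that length were lower. Of the 15 of 4 kb or more, 1 was lower, 10 were higher and 4 did not pass (median 0.78), where 483 of all 794 such genes were higher. These shares are near those of all genes of the same length. The ratio of CENPF to CENPA counts was 24.5, 29.1 and 30.6 in the olaparib libraries, against 4.78, 3.61 and 5.25 in the DMSO libraries, the widest separation of the 10 partner ratios computed (2.64 log2 units). These genes lie far apart on the length gradient, with coding sequences of 9342 bases (CENPF) and 420 bases (CENPA). With the coding length offset their log2 fold changes were 0.50 and -0.76, against 1.30 and -1.35 without it. The ratio of the checkpoint genes BUB1B to BUB1 was 0.593, 0.558 and 0.567 in olaparib and 0.413, 0.371 and 0.478 in DMSO, a difference of 0.45 log2 units.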
